A study of Mus musculus with 45 samples.

Results

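The comparison described here asked what the F/R/C supplement did to mouse embryonic fibroblasts (MEFs) after 8 days of forced MyoD expression. It was made between the 3 libraries of cells treated with doxycycline (Dox) plus F/R/C and the 3 libraries of cells treated with Dox alone, paired by replicate number. These are 6 of the 45 RNA-sequencing libraries in the series. The others are untreated MEFs, both treatments on days 2, 4, 6 and 10, and induced myogenic progenitor cells (iMPCs) and myoblasts, each as bulk and Pax7-positive samples. All 6 libraries carry the genotype label Tg:Pax7-nGFP on a C57BL6;DBA2 background, a transgene that reports the muscle stem cell gene Pax7 with a nuclear green fluorescent protein. The labels call the Dox-only cells myotubes and the Dox plus F/R/C cells muscle fibers and progenitor cells, and both are whole, unsorted cultures. Below, "MyoD alone" is Dox only and "with F/R/C" is Dox plus F/R/C. The labels do not spell out F/R/C. In published protocols for iMPCs the letters stand for forskolin, RepSox and a GSK3 inhibitor of the CHIR series.

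As background, MyoD is a basic helix-loop-helix factor that switches fibroblasts into the skeletal muscle lineage, where cells leave the cell cycle, fuse and build sarcomeres. Forskolin activates adenylyl cyclase and raises cAMP, RepSox blocks the type I TGF-beta receptor, and inhibition of GSK3 stabilises beta-catenin, the effector of canonical Wnt signalling. In adult muscle, Pax7-expressing stem cells are held in an undifferentiated state by Notch signalling, and they supply new myoblasts through Myf5 and MyoD. In whole cultures, a lower level of a transcript can mean fewer cells of a type or less RNA per cell, and these cannot be told apart.

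The 6 libraries held 17.1 to 24.4 M estimated reads (1 M is 1000000 reads). Levels are counts per 1000000 reads (CPM) after TMM scaling, given for replicates 1, 2 and 3 in that order, and a difference is the log2 fold change with F/R/C over MyoD alone. A gene was called when edgeR's quasi-likelihood test gave a Benjamini-Hochberg adjusted p under 0.05 and the change was at least 2-fold. Of 16688 genes tested, 4000 were called (24.0%). In 7863 genes (47.1%) the 3 libraries of 1 group did not overlap those of the other. Of the called genes, 2080 were higher with F/R/C (12.5%) and 1920 were lower (11.5%). The direction was shared by all 3 pairs for 2023 of the higher and 1889 of the lower genes. Over all tested genes the median difference was 0.0002 on the log2 scale, and 783 called genes differed by at least 3 on the log2 scale, 505 of them higher. By Y-linked genes and Xist, the cells of replicate 3 in both arms differed in sex from those of replicates 1 and 2. Nothing in the labels says that replicates are separate cultures, so p-values measure only the spread between libraries. That spread was estimated over all 33 time-course libraries, with 20 residual degrees of freedom. The day 8 libraries alone, with replicate number as a block, leave 2 and gave 2794 calls. Replicate 2 of MyoD alone stood apart: the summed level of 42 sarcomere genes was 66469 CPM there and 36393 and 26003 CPM in replicates 1 and 3, and the summed level of 25 proliferation genes was 237 against 639 and 648 CPM. Without that library 3914 genes were called.

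**Figure D1:**
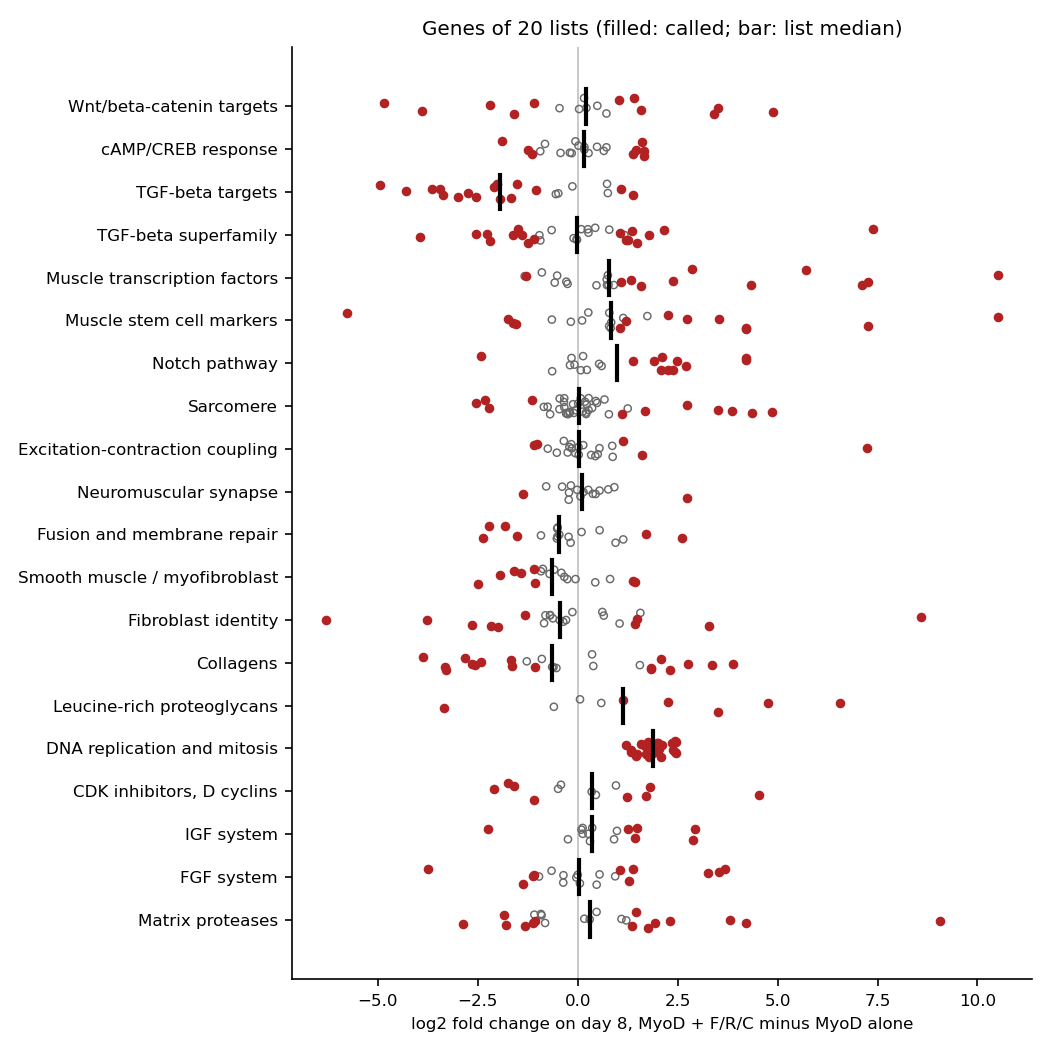
Log2 fold change on day 8 (x axis, F/R/C over MyoD alone) of the tested genes of 20 gene lists (y axis), 1 point per gene. Filled points were called, open points were not, and black bars are list medians. The TGF-beta target list lies mostly to the left of 0 with a median of -1.94, all 25 genes of DNA replication and mitosis lie to the right with a median of 1.89, and the sarcomere list is centred at 0.05.

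Myod1 and muscle genes were expressed in both arms. Myod1 stood at 932, 2141 and 651 CPM with MyoD alone and 549, 962 and 874 CPM with F/R/C, against 3.47 ± 4.49 CPM in untreated MEFs (SD, n = 3). The groups overlapped, and the log2 fold change of -0.51 was not called (SE 0.48, adjusted p = 0.388). Reads from an introduced Myod1 sequence and from the gene itself are counted together. Myog, the factor that drives terminal muscle differentiation, was at 589.7, 969 and 347 CPM with MyoD alone and 811, 1222 and 966 CPM with F/R/C, overlapping and not called (0.73, SE 0.59, adjusted p = 0.316). Embryonic myosin heavy chain, Myh3, was at 5544, 10875 and 3237 CPM with MyoD alone and 5653, 7382 and 6939.6 CPM with F/R/C. It overlapped between the groups and was not called (0.13, SE 0.89, adjusted p = 0.919). The sign of the Myh3 value turned in 4 alternative analyses.

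Targets of TGF-beta signalling were lower with F/R/C. Of 21 genes commonly induced by TGF-beta or activin, all of them tested, 14 fell, 2 rose and 5 were not called, and the median was -1.94. The share called was 76.2%, against 24.0% of all genes. Fibronectin, Fn1 (ENSMUSG00000026193, chr1:71585520-71653200, GRCm38), a major matrix glycoprotein, went from 23101, 11954 and 14849.9 CPM to 1678, 603 and 498 CPM, with every F/R/C library far below every library of MyoD alone (-4.30 on the log2 scale, SE 0.45, adjusted p = 1.1e-07). The matricellular protein gene Ccn2 was at 1685, 940.4 and 825 CPM and 209.8, 77.3 and 36.2 CPM. Its groups were also separate, in both of them replicate 1 was the highest and replicate 3 the lowest library, and it fell by 3.64 (SE 0.59, adjusted p = 2.9e-05).

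The feedback genes of the same pathway moved the same way. Pmepa1, which encodes an inhibitor that sequesters receptor-activated Smads, was at 290.5, 257 and 229 CPM and fell to 25.4, 15.1 and 31.3 CPM (-3.45, SE 0.26, adjusted p = 2.1e-09). The inhibitory Smad gene Smad7 fell by 2.75, the Ski-like repressor Skil by 1.03, and the ligand Tgfb1 by 2.01. Thbs1, whose product activates latent TGF-beta, fell by 3.38. The latent TGF-beta binding protein Ltbp2 fell by 3.00 and the integrin subunit Itgav by 2.54. The 2 members that rose were the ligand Tgfb2 (1.09) and the matricellular gene Postn, at 31.1, 23.5 and 33.3 CPM with MyoD alone and 52, 57.9 and 135 CPM with F/R/C (1.38, SE 0.37, adjusted p = 0.0034). Neither of these was called in the fit of all 45 libraries without the replicate block.

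The wider TGF-beta superfamily was divided. Of 29 ligands, receptors, antagonists and Id targets, 8 rose, 9 fell and 12 were not called (median -0.02). Calls made up 58.6% of this list, against 24.0% of all genes. Mstn (chr1:53061640-53068079), which encodes myostatin, the muscle-secreted inhibitor of muscle growth, was at 2.05, 5.34 and 0.871 CPM with MyoD alone and 367, 465 and 412 CPM with F/R/C. The F/R/C libraries were close to each other and all far above the others, and Mstn rose by 7.40 on the log2 scale (SE 0.67, adjusted p = 2e-08). Its relative Gdf11 went from 25.6, 18.8 and 34 CPM to 65.4, 67.2 and 65.4 CPM (1.35, SE 0.17). The activin subunit Inhba fell by 2.19. The antagonists that bind activin and myostatin were lower too: follistatin, Fst, was at 113, 110.2 and 127 CPM and then 42.2, 11.4 and 30.1 CPM (-2.26, SE 0.45, adjusted p = 0.00028), and Fstl3 fell by 2.55.

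BMP antagonists were divided. Chordin, Chrd, was at 24.3, 41.5 and 23 CPM with MyoD alone and 9.66, 9.69 and 9.16 CPM with F/R/C, lower in every F/R/C library (-1.61, SE 0.29, adjusted p = 9.2e-05). Grem1 fell by 1.38 with overlapping groups, while Nog rose by 1.06. Among the Id genes, helix-loop-helix proteins that bind and block factors such as MyoD's partners, Id4 rose by 2.16 and Id2 by 1.49, and Id1 (0.09) and Id3 (0.25) were not called. The Id2 groups overlapped, with F/R/C replicate 3 at 19.9 CPM and the highest library of MyoD alone at 24.3 CPM.

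Genes of the cAMP response were divided. Of 21 tested, 5 rose, 3 fell and 13 were not called (median 0.17). The rate of calls was 38.1%, against 24.0% of all genes. Pde4b, a phosphodiesterase that degrades cAMP, was at 27.3, 13.9 and 34.8 CPM with MyoD alone and 73.2, 77.8 and 74.3 CPM with F/R/C (1.66, SE 0.25, adjusted p = 1.5e-05). The F/R/C libraries were nearly equal and lay above all 3 others. Sik1, a salt-inducible kinase, went from 130.3, 207 and 89.2 CPM to 338, 435 and 369 CPM, again without overlap (1.46, SE 0.23, adjusted p = 1.7e-05). Pde3b, Pde3a and the coactivator gene Ppargc1a rose by 1.66, 1.39 and 1.60. The Pde3a and Ppargc1a calls were each lost in 9 of 18 alternative analyses, and the Pde3b call in 4. The orphan receptor gene Nr4a2 was at 19.9, 13.3 and 17.8 CPM and fell to 5.22, 4.98 and 3.42 CPM (-1.90, SE 0.34, adjusted p = 9.6e-05), and Pde4a fell by 1.24. The immediate-early genes Fos (-0.19) and Nr4a1 (-0.93) and the repressor gene Crem (0.17) were not called. The count of higher genes was 3 without replicate 3 of MyoD alone, and it was 2 or 3 in 6 of the alternative analyses in all.

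A core of the cAMP response element, TGACGT on either strand, lay in the 250 bases upstream of the start in 10 of 28 RefSeq promoters (35.7%) of 16 of the 21 cAMP genes, against 6.47% of all 32851 promoters in the RefSeq table (GRCm38.p6). The Pde4b promoter is shown because Pde4b is the member of the list with the smallest adjusted p among those that rose. The table has 4 promoters for this gene, and the first that holds the core is printed, at chr4:102421305-102421554 on the plus strand, 5′ to 3′, with the core in capitals (here on the opposite strand).
Pde4b: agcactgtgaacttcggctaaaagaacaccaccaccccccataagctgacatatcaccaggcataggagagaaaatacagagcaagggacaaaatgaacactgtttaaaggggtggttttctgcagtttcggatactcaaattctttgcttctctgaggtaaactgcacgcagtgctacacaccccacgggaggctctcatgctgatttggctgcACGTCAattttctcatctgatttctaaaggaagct
A match describes these letters only.

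Wnt target and feedback genes moved in both directions. Of 20 listed genes, 17 were tested, 6 rose, 5 fell and 6 were not called (median 0.22). Calls made up 64.7% of those tested, against 24.0% of all genes. Axin2, a negative regulator used as the standard reporter of canonical Wnt signalling, was at 5.59, 8.41 and 3.05 CPM with MyoD alone and 15.7, 17.2 and 16.9 CPM with F/R/C (1.59, SE 0.37, adjusted p = 0.00125). All F/R/C libraries were above the others. The R-spondin receptor gene Lgr5 went from 0.218, 0.643 and 0.290 CPM to 8.79, 15 and 10.4 CPM (4.89, SE 0.74, adjusted p = 1.2e-05). Notum, which encodes an enzyme that inactivates Wnt ligands, rose by 3.41. The other members that rose were Nkd2 (1.41), Tnfrsf19 (1.04) and the secreted Wnt-binding protein gene Sfrp2 (3.52).

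Other members fell, among them the secreted Wnt antagonist genes Wif1 and Dkk2. Wif1, which binds Wnt ligands, was at 21.2, 34.7 and 9.14 CPM and fell to 0.604, 0.524 and 0.912 CPM (-4.85, SE 0.61, adjusted p = 1.3e-06). Dkk2 varied widely with MyoD alone, at 53.9, 27.6 and 248 CPM, and stood at 5.27, 3.71 and 8.06 CPM with F/R/C. No libraries overlapped, and Dkk2 fell by 3.89 (SE 0.69, adjusted p = 8e-05). Ccnd1, which encodes cyclin D1, fell by 1.58, Lgr6 by 2.18 and Bmp4 by 1.09. The Bmp4 call was lost in 14 of 18 alternative analyses and the Nkd2 call in 11. Lef1 (0.49), Tcf7 (-0.45) and Znrf3 (0.72) were not called.

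**Figure D2:**
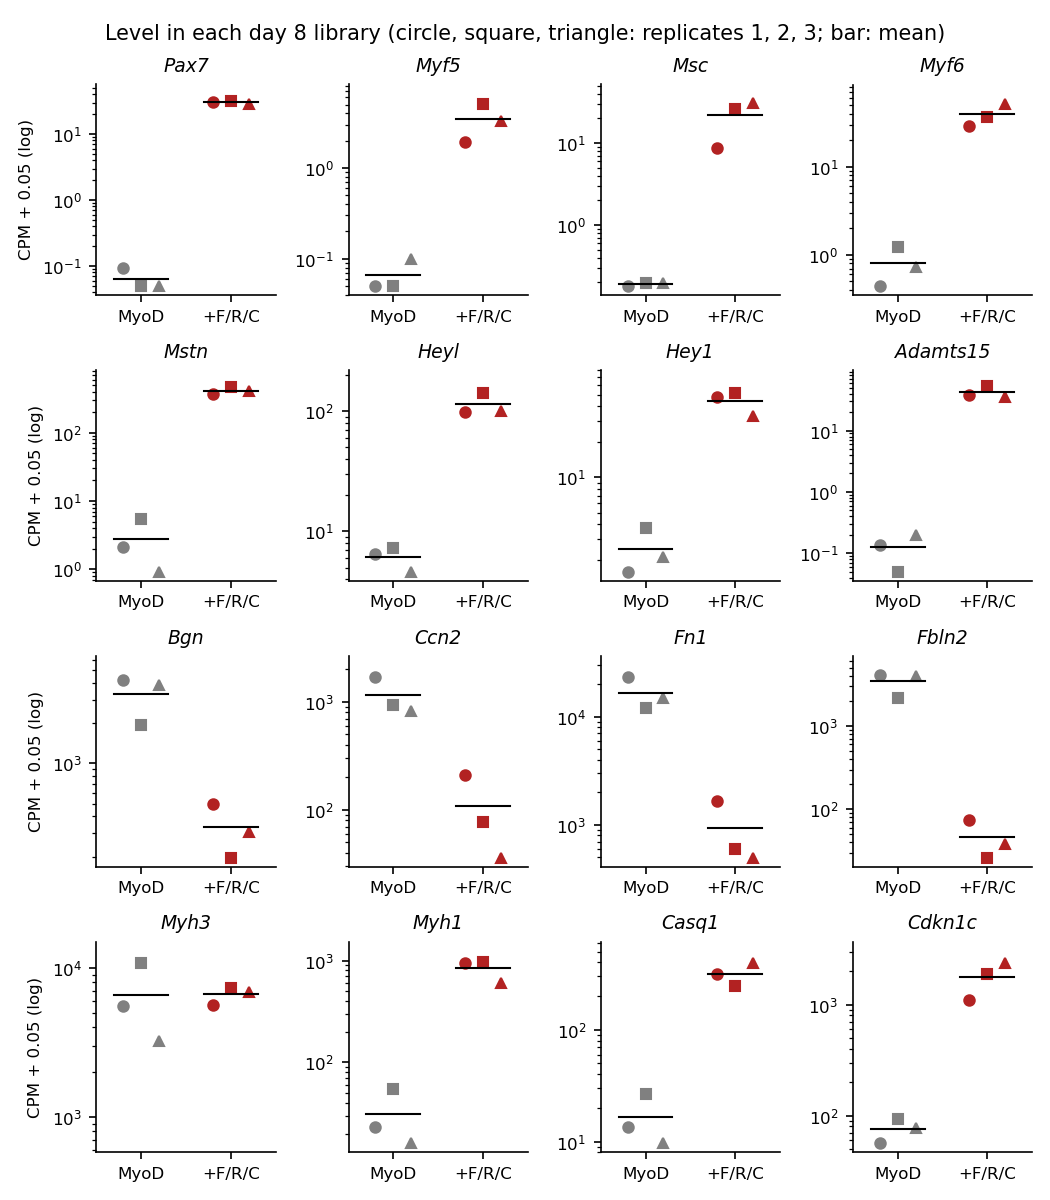
CPM plus 0.05 on log axes that differ between panels, for 16 genes in each of the 6 day 8 libraries. Circles, squares and triangles are replicates 1, 2 and 3, and bars are means. Groups are separate in every panel except that of Myh3, where the symbols of both groups lie between 3237 and 10875 CPM.

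Some transcription factors of the muscle lineage separated the arms. Of 24 muscle transcription factors, 23 were tested, 10 rose, 1 fell and 12 were not called (median 0.77). Among those tested, 47.8% were called, against 24.0% of all genes. Pax7 (ENSMUSG00000028736, chr4:139737062-139833528), the paired-box factor that marks muscle stem cells, was at 0.0437, 0 and 0 CPM with MyoD alone, 1 read in all, and at 30.0, 31.3 and 28.8 CPM with F/R/C. The F/R/C libraries were nearly equal, and the ratio of the groups' pooled levels was 1912, with an exact 95% interval of 343 to 75572 that covers counting error only (adjusted p = 1.4e-08). Myf5, the first of the MyoD family to act in embryonic muscle, was at 0, 0 and 0.0484 CPM and 1.87, 5.02 and 3.23 CPM, a ratio of 221 (interval 39.4 to 8783, adjusted p = 3.5e-06). Musculin, Msc, a repressor found in muscle precursors, was at 0.131, 0.148 and 0.145 CPM and 8.68, 26.3 and 30.7 CPM. Its lowest F/R/C library was replicate 1, and the ratio was 165 (interval 86.6 to 361, adjusted p = 1.3e-07).

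Myf6, the fourth member of the MyoD family, which marks differentiated fibers, went from 0.393, 1.19 and 0.677 CPM to 29.3, 36.3 and 51.9 CPM. It was far higher in every F/R/C library (5.71, SE 0.38, adjusted p = 6e-10). The homeobox factor gene Six4 rose by 1.57. Its cofactor genes of the Eya family, which act upstream of the MyoD family, rose at Eya1 (1.34) and Eya2 (4.32). Eya2 was at 0.262, 1.04 and 0 CPM with MyoD alone and 7.14, 10.5 and 7.19 CPM with F/R/C. The E-protein gene Tcf4 rose by 1.08 and the homeobox gene Meox1 by 2.37. The repressor gene Bhlhe41 fell by 1.28. The count of factors that fell was 3 without replicate 3 of MyoD alone and 2 without F/R/C replicate 3. Mef2a, Mef2b, Mef2c and Mef2d, partners of the MyoD family, lay between -0.57 and 0.73, and none of these was called.

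Of 24 markers of muscle stem and progenitor cells, 23 were tested, 9 rose, 4 fell and 10 were not called (median 0.84). Among those tested, 56.5% were called, against 24.0% of all genes. The list shares Pax7 and Myf5 with the transcription factors and Heyl, Hey1 and Notch3 with the Notch genes. Fgfr4, a receptor of myogenic cells, was at 7.51, 10.6 and 9.58 CPM with MyoD alone and 79.4, 111 and 145 CPM with F/R/C, without overlap (3.54, SE 0.38, adjusted p = 1.9e-07). Dmrt2 rose by 2.73, Tenm4 by 1.21 and the signalling inhibitor Spry1 by 1.07. Chodl, a lectin-like membrane protein that marks quiescent muscle stem cells, went the other way, from 12.6, 22.4 and 5.56 CPM to 0.494, 0.175 and 0.0760 CPM (-5.76, SE 0.60, adjusted p = 1.2e-07). Cav1, Sdc3 and Vcam1 fell by 1.74, 1.63 and 1.53, the last with overlapping groups. Cd34 (-0.64), Itga7 (0.79), Cdh15 (1.14) and Cxcr4 (1.74) were not called.

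Notch genes that were called were higher with F/R/C, with 1 exception. Of 23 ligands, receptors, modulators and targets, 20 were tested, 10 rose, 1 fell and 9 were not called (median 0.99). Calls made up 55% of those tested, against 24.0% of all genes. Heyl (chr4:123233556-123249875), a transcriptional repressor induced by Notch, was at 6.42, 7.22 and 4.55 CPM with MyoD alone and 98.4, 142 and 101 CPM with F/R/C (4.20, SE 0.55, adjusted p = 2.1e-06). The related target Hey1 was at 1.53, 3.66 and 2.08 CPM and 47.3, 51.8 and 33 CPM (4.20, SE 0.47, adjusted p = 3.3e-07). For both targets the lowest F/R/C library was many times the highest library of MyoD alone. Nrarp, a feedback inhibitor of Notch, rose by 2.48. Among the targets that were not called were Hes1 (-0.64), Hes6 (-0.15) and Hey2 (0.14).

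On the ligand side, Dll1 was at 6.38, 8.85 and 2.51 CPM with MyoD alone and 32.7, 46.3 and 34.6 CPM with F/R/C, without overlap (2.71, SE 0.35, adjusted p = 1.6e-06), and Dll4 rose by 2.08. Jag1 (-0.19) and Jag2 (0.60) were not called. The receptors differed among themselves: Notch1 rose by 2.12 and Notch3 by 2.26, Notch2 (-0.08) was not called, and Notch4, which is known from endothelium, went from 6.12, 3.16 and 2.08 CPM to 0.769, 0.786 and 0.418 CPM (-2.41, SE 0.37, adjusted p = 1.4e-05). The Fringe glycosyltransferase genes Lfng and Mfng, whose products tune ligand choice, rose by 1.38 and 2.39, and Dtx4 by 1.92. The Mfng groups overlapped and its call was lost in 9 of 18 alternative analyses.

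Most sarcomere genes were not called. Of 42 thick and thin filament genes and their partners, all tested, 7 rose, 4 fell and 31 were not called (median 0.05). The rate of calls, 26.2%, was near the 24.0% of all genes. The summed level of the list was 36393, 66469 and 26003 CPM with MyoD alone and 37699, 48199 and 52531 CPM with F/R/C, overlapping. The members that rose were fast, adult or cardiac forms. Myh1, the fast type IIx myosin heavy chain, was at 23.1, 54.7 and 16 CPM with MyoD alone and 957, 961 and 601 CPM with F/R/C (4.87, SE 0.57, adjusted p = 5e-07). Every F/R/C library was over every library of MyoD alone. Myosin heavy chain transcripts are alike in sequence, and reads shared between them were divided by kallisto, so the split among Myh1, Myh2 (1.12), Myh4 (1.68) and Myh6 (2.72) is uncertain.

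Casq1 encodes the calcium-binding protein of the fast-fiber sarcoplasmic reticulum, which is not a filament protein. Its level was 13.5, 26.4 and 9.58 CPM with MyoD alone and 317, 246 and 391 CPM with F/R/C (4.36, SE 0.46, adjusted p = 1.3e-07). Mybpc2, the fast form of myosin-binding protein C, went from 0.568, 1.38 and 0.435 CPM to 8.79, 6.20 and 29.1 CPM (3.87, SE 0.60, adjusted p = 1.7e-05). Both were separate between the groups. The sarcomere genes that fell include slow and cardiac forms. The slow light chain gene Myl3 was at 30.3, 90.3 and 48.4 CPM and 3.19, 7.34 and 30.0 CPM (-2.33, SE 0.58, adjusted p = 0.00208). Myl2 fell by 2.53, Mybpc3 by 2.22 and Tcap by 1.14, all 3 with overlapping groups, and cardiac troponin I, Tnni3, rose by 3.52. The slow myosin heavy chain Myh7, at 755, 2249.8 and 485 CPM with MyoD alone and 441, 723 and 520.2 CPM with F/R/C, was not called (-0.85, SE 0.41, adjusted p = 0.0884). Of the 4 falls, 2 were called with no replicate block, with all 45 libraries and no block, or without F/R/C replicate 2. The count was 1 without replicate 1 in every group. It was 0 without replicate 2 in every group, and with only the groups compared and no block.

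Excitation-contraction coupling genes were called at about the rate of all genes, 22.7% against 24.0%. Of 22 excitation-contraction coupling genes, 3 rose, 2 fell and 17 were not called (median 0.02). Pln, a regulator of the calcium pump, had no reads with MyoD alone and stood at 1.04, 0.742 and 0.798 CPM with F/R/C, at least 6.09-fold higher when 3 reads per library are taken as the floor (0.141 CPM, counting error only). The skeletal muscle sodium channel gene Scn4a rose by 1.14. The falls of Cacna1s (-1.09) and Cacng1 (-1.02), subunits of the muscle calcium channel, were called neither without replicate 1 or 2 of MyoD alone nor without F/R/C replicate 2, and Cacna1s lost its call in 8 and Cacng1 in 10 of 18 alternative analyses. Without replicate 3 of MyoD alone, 1 of the 3 rises was called. Of 17 neuromuscular synapse genes, 16 were tested, 1 rose and 1 fell, a rate of 12.5%, below that of all genes. Ache, acetylcholinesterase, was at 4.06, 6.18 and 2.61 CPM and rose to 19.8, 19.4 and 51 CPM (2.74, SE 0.58, adjusted p = 0.0005), and the ETS factor gene Etv4 fell by 1.36. The fall was not called without F/R/C replicate 3, and 2 genes of the list were called higher without replicate 1 or 2 of MyoD alone or without F/R/C replicate 2.

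Of 20 genes of myoblast fusion and membrane repair, 18 were tested, 2 rose, 4 fell and 12 were not called (median -0.48). The rate of calls was 33.3%, against 24.0% of all genes. The fusogens Mymk (-0.23) and Mymx (0.10) were not called. Jam2, an adhesion molecule, was at 184, 240.0 and 110.4 CPM with MyoD alone and 32.7, 40.0 and 29.9 CPM with F/R/C (-2.36, SE 0.25, adjusted p = 1.2e-07). Cav3, muscle caveolin, fell by 1.81 and Myof, myoferlin, by 1.51. The adhesion receptor gene Cdon went up from 62.8, 84.8 and 24.8 CPM to 215, 192 and 127 CPM (1.70, SE 0.31, adjusted p = 0.00012), and Elmo1 rose by 2.61.

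Genes of DNA replication and mitosis were higher with F/R/C. All 25 of 25 tested rose, against 12.5% of all genes. Their log2 fold changes ran from 1.21 (Rrm2) to 2.47 (Kif11), with a median of 1.89. Top2a, the topoisomerase of dividing cells, was at 59.4, 13.9 and 49.1 CPM with MyoD alone and 224, 234 and 109.8 CPM with F/R/C (2.45, SE 0.59, adjusted p = 0.00156). The groups did not overlap, and the lowest library was replicate 2 with MyoD alone and replicate 3 with F/R/C. Kif11, a spindle motor, went from 15.4, 3.31 and 11.7 CPM to 55, 59.8 and 32.2 CPM (SE 0.54, adjusted p = 0.00064), and Ccne1, cyclin E1, from 21.8, 14.2 and 28 CPM to 116, 121 and 94.5 CPM (2.43, SE 0.26, adjusted p = 2e-07). Of the 25 genes, 24 were called without replicate 2 of MyoD alone, 12 when the day 8 libraries were fitted alone with the replicate block, and 11 without replicate 2 in every group. 

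**Figure D3:**
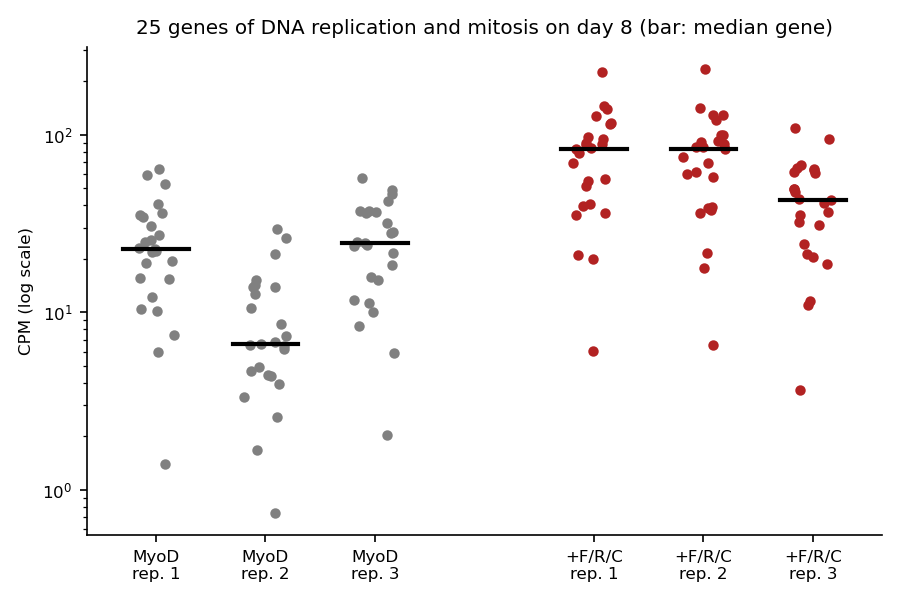
CPM (log axis) of 25 genes of DNA replication and mitosis in each day 8 library, 1 point per gene, with the median gene as a bar. The medians are 22.9, 6.63 and 24.7 CPM with MyoD alone and 83.6, 83.5 and 42.9 CPM with F/R/C, so that replicate 2 of MyoD alone is the lowest of the 6 libraries.

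Promoters are shown for 3 of these genes because the list moved together, and these 3 were chosen because each holds both motifs described here. The CCAAT box (letters CCAAT, either strand) lay in the 250 bases upstream of the start in 17 of 20 RefSeq promoters (85%) of 19 of the 25 genes, against 33.8% of all promoters in the table. The cell cycle homology region, CHR (letters TTTGAA, either strand), lay in 7 of 20 (35%), against 16.0%, and these 7 also held the CCAAT box. Capitals mark both motifs, and ATTGG and TTCAAA are their reverse complements. Cdc20 lies at chr4:118437344-118437593 on the minus strand, Cdk1 at chr10:69352913-69353162 on the minus strand and Kif11 at chr19:37376132-37376381 on the plus strand, all GRCm38.p6 and printed 5′ to 3′.
Cdc20: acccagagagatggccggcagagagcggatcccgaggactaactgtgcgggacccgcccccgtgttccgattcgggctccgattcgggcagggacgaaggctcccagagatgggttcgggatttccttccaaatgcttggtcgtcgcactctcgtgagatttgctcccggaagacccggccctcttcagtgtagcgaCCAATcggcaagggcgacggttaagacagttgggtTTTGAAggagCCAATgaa
Cdk1: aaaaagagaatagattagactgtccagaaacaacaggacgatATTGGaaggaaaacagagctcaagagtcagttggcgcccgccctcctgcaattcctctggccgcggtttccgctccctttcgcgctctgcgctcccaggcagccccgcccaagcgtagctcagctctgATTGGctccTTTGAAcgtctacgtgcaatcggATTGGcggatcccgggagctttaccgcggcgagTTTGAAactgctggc
Kif11: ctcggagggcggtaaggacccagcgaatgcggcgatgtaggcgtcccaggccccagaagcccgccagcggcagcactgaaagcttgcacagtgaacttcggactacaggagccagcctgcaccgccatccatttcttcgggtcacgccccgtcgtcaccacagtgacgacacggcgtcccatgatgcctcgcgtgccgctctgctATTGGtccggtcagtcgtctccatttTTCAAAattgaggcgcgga
Cdc20, an activator of the anaphase-promoting complex, rose by 1.68, and Cdk1, the mitotic kinase, by 1.78. The matches describe the letters only. The letters TGGGAA, the core of the site of RBPJ, the DNA-binding partner of Notch, were searched in the same way and lay in 5 of 21 promoters (23.8%) of 18 of the 23 Notch genes, against 21.6% of all. The E-box letters CAGCTG lay in 15 of 40 promoters (37.5%) of 35 of the 42 sarcomere genes, against 13% of all.

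Regulators of cell cycle exit were divided. Of 13 CDK inhibitors, pocket proteins and D cyclins, 4 rose, 4 fell and 5 were not called (median 0.35). The share called was 61.5%, against 24.0% of all genes. Cdkn1c, which encodes p57, a CDK inhibitor of differentiating muscle, was at 56.1, 92.5 and 76.5 CPM with MyoD alone and 1091, 1877 and 2355 CPM with F/R/C. Each F/R/C library was more than 10 times the highest of the others, and Cdkn1c rose by 4.53 (SE 0.51, adjusted p = 3.4e-07). Cdkn2b and Cdkn2a, which encode inhibitors linked to senescence, fell by 2.10 and 1.10. The D cyclins split, with Ccnd2 at 1089.7, 659 and 1129.9 CPM and then 434, 251 and 188 CPM (-1.73, SE 0.29, adjusted p = 4.9e-05) and Ccnd3 at 392, 529 and 372 CPM and then 899, 964 and 1198 CPM (1.24, SE 0.17, adjusted p = 3.8e-06). Cdkn1a, the inhibitor p21 that MyoD is known to induce, was not called (-0.42). Cdkn2c and the pocket protein gene Rbl1 rose by 1.82 and 1.70.

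Matrix genes changed in kind. Of 25 collagens, 7 rose, 10 fell and 8 were not called (median -0.64, call rate 68% against 24.0% of all genes). Among the fibrillar collagens, Col1a1 (-1.63), Col1a2 (-2.41) and Col5a2 (-2.81) fell, while Col5a3 rose by 2.08. Col5a2 was at 3511, 2138 and 3815 CPM with MyoD alone and 588, 298 and 473 CPM with F/R/C. Col11a1, also fibrillar, went from 167, 83.4 and 60.4 CPM to 7.69, 4.10 and 7.79 CPM (-3.87, SE 0.45, adjusted p = 4.4e-07). The 3 chains of the microfibrillar collagen VI rose together, Col6a1 by 1.85, Col6a2 by 3.35 and Col6a3 by 2.75. Col6a2 was at 34.9, 13.3 and 94.2 CPM and 379, 226 and 656 CPM, with replicate 3 the highest in both groups and no overlap. Col15a1 and Col18a1, which encode basement membrane collagens that carry endostatin-like domains, rose by 3.88 and 2.30. Col3a1 (0.36) and Col4a1 (-0.60) were not called. The count of higher collagens was 4 in the 2 settings that used all 45 libraries, or only the groups compared, without the block.

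Of 13 small leucine-rich proteoglycans, proteins that bind collagen fibrils, 9 were tested, 5 rose, 1 fell and 3 were not called (median 1.13). Calls made up 66.7% of those tested, against 24.0% of all genes. The summed level of the list was lower, at 4266, 2015 and 3927 CPM with MyoD alone and 763, 481 and 694 CPM with F/R/C. In each group, 5 of the 13 had a mean under 1 CPM. Biglycan, Bgn, was at 4207, 1949 and 3844 CPM with MyoD alone and 493, 196 and 307 CPM with F/R/C (-3.35, SE 0.34, adjusted p = 9.2e-08). Its close relative decorin, Dcn, went the other way, from 1.49, 0.841 and 21 CPM to 45.1, 27 and 102 CPM (3.50, SE 0.79, adjusted p = 0.00085). Lumican, Lum, rose by 4.77 and Ogn by 2.26. Replicate 3 was the highest library of both groups for Dcn and for Lum. Only 2 of the 5 rises were called when the day 8 libraries were fitted alone without the block.

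Among 23 matrix proteases and inhibitors, 8 rose, 6 fell and 9 were not called (median 0.30). The share called was 60.9%, against 24.0% of all genes. Adamts15, a versican-cleaving protease, had 0 to 3 reads per library with MyoD alone (0.0874, 0 and 0.145 CPM) and stood at 38.4, 52.5 and 35.6 CPM with F/R/C, a ratio of 537 (interval 229.9 to 1655, adjusted p = 5.7e-07). Adamts9 rose by 2.31 and Mmp9 by 4.20. The inhibitors were on the other side for 3 of 4: Timp1 was at 335, 158 and 400.1 CPM and fell to 69.9, 27.2 and 25.9 CPM (-2.88, SE 0.31, adjusted p = 1.9e-07), Timp2 fell by 1.85 and Timp3 by 1.12. Timp4 rose from a level of at most 0.0967 CPM to 0.934, 0.306 and 0.418 CPM. The Timp3 call was lost in 9 of 18 alternative analyses, and the count of rises was 4 with all 45 libraries, or only the groups compared, without the block.

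Fibroblast genes were divided. Of 24 fibroblast identity genes, 23 were tested, 4 rose, 6 fell and 13 were not called (median -0.45). Among those tested, 43.5% were called, against 24.0% of all genes. Fbln2 (chr6:91212455-91272540), a matrix glycoprotein, was at 4152, 2191 and 3962 CPM with MyoD alone and 74.7, 26.2 and 38.4 CPM with F/R/C. This was the largest fall of the list, without overlap (-6.29, SE 0.45, adjusted p = 1.2e-09). Lox, which cross-links collagen, fell by 3.77 and S100a4 by 2.65. Dpp4, a surface protease of fibroblast progenitors, had no reads with MyoD alone and 1.70, 2.18 and 2.70 CPM with F/R/C, at least 15.5-fold higher. Fap rose by 3.28, and Pdgfra, a receptor of mesenchymal cells, was at 13.2, 9.89 and 36.8 CPM and 84.7, 20.4 and 63.3 CPM, with overlapping groups (1.49, SE 0.47, adjusted p = 0.012). Thy1 (-0.84), Twist1 (-0.81) and Prrx1 (0.65) were not called.

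Of 18 contractile proteins of smooth muscle and myofibroblasts, 2 rose, 6 fell and 10 were not called (median -0.65). The share called was 44.4%, against 24.0% of all genes. Tagln was at 1682, 832 and 1509 CPM with MyoD alone and 437, 235 and 106 CPM with F/R/C (-2.49, SE 0.42, adjusted p = 4.2e-05). Caldesmon, Cald1, fell by 1.93 and non-muscle myosin Myh9 by 1.59. Acta2, smooth muscle actin, was at 3389.5, 2202 and 2550.2 CPM and 1993, 1664 and 809 CPM. Its groups did not overlap and its adjusted p was 0.00689, but its change of -0.92 (SE 0.27) was under the 2-fold minimum. The adjusted p was 0.0603 without the block and 0.184 with all 45 libraries and no block. It was also over 0.05 with only the groups compared, and without replicate 3 of F/R/C or of every group. Without replicate 2 of MyoD alone, of F/R/C or of every group, Acta2 was called lower. Synpo2 rose by 1.38 and Myh11 by 1.43, the latter no longer called in 10 of 18 alternative analyses. Of these rises, 1 was called without replicate 1 of MyoD alone or without F/R/C replicate 1 or 2.

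Growth factor systems changed at named members. Of 15 IGF genes, 5 rose, 1 fell and 9 were not called (median 0.36, call rate 40% against 24.0% of all genes). Igf2, the fetal growth factor that acts on differentiating muscle, was at 3262, 5399 and 2261 CPM with MyoD alone and 9169, 10470.4 and 9954 CPM with F/R/C (1.49, SE 0.38, adjusted p = 0.00226). Igfbp5, an IGF-binding protein of differentiating myoblasts, went from 185, 303 and 202 CPM to 1940.0, 1667 and 1659 CPM (2.93, SE 0.52, adjusted p = 8.7e-05). Both were separate between the groups. Igfbp2 rose by 2.89, Igf1 by 1.44 and Igfbp3 by 1.26, while Igfbp7 fell by 2.24. Igf1r (0.27), Igf2r (0.13) and H19 (0.36) were not called. In the fit of all 45 libraries without the block, 2 of the IGF genes were called higher.

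Of 20 FGF genes, 6 rose, 4 fell and 10 were not called (median 0.03, call rate 50% against 24.0% of all genes). The ligand gene Fgf2 was at 130.3, 68.2 and 63.7 CPM with MyoD alone and 13.9, 5.20 and 2.70 CPM with F/R/C, the largest fall of the list (-3.74, SE 0.38, adjusted p = 9.9e-08). Fgf5 rose by 3.25 and Fgf21 by 3.68, both from under 1 CPM. Fgfr4 was the receptor that rose, Fgfr3 fell by 1.09 with its call lost in 9 of 18 alternative analyses, and Fgfr1 (-0.97) and Fgfr2 (0.06) were not called. The feedback genes Dusp6 (-0.03), Spry2 (0.48) and Spry4 (0.94) were not called either. The count of falls was 1 without F/R/C replicate 3 and 2 without F/R/C replicate 2, and the count of rises was 3 in the fit of all 45 libraries.

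Cholesterol synthesis and uptake genes leaned upward with few calls. Of 20 tested, 19 had a positive log2 fold change (median 0.73), and 2 rose by the 2-fold rule. The rate of calls was 10%, below the 24.0% of all genes. Idi1, an isomerase of the pathway, was at 30.1, 26.1 and 30.1 CPM with MyoD alone and 60.7, 72.9 and 93.1 CPM with F/R/C (1.39, SE 0.21, adjusted p = 1.7e-05), and Stard4, a sterol carrier, rose by 1.22. Without F/R/C replicate 1, 7 of the 20 were called higher. Of 22 interferon response genes, 17 were tested and 4 rose, Irf7 (1.82), Rsad2 (2.05), Bst2 (1.56) and Ifih1 (1.88), a rate of 23.5% that is near the background. All 4 were at low levels, with Ifih1 at 1.66, 1.29 and 2.47 CPM and 5.77, 8.21 and 5.63 CPM. Without replicate 1 or 2 of MyoD alone or F/R/C replicate 1, 1 gene of this list was called lower.

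Markers of other cell types were mostly near 0 in both groups. Of 10 macrophage and leukocyte genes, 8 were under 1 CPM with F/R/C and 6 with MyoD alone. Only 4 of them were tested, not Ptprc or C1qa, and 1 fell (25%). Of 9 endothelial genes, 8 were tested, 4 fell and none rose, a rate of 50% against 24.0% of all genes. Their summed level was 27.4 to 59.7 CPM with MyoD alone and 13.7 to 16.0 CPM with F/R/C. Flt1 was the endothelial gene that carried most of this, at 27.4, 23.1 and 52.8 CPM and 10.0, 14 and 13.2 CPM (-1.34, SE 0.34, adjusted p = 0.00257). The count of endothelial falls was 2 when any of 5 of the 6 libraries was left out (not replicate 2 of MyoD alone), and 1 in the fits of all 45 libraries and of only the groups compared, both without the block. Of 11 cartilage and bone genes, 6 were tested and 3 fell (50%), Sox9 (-1.07), Runx2 (-1.24) and Sp7 (-2.89). Of 10 adipocyte genes, 7 were tested and 3 rose (42.9%). Lpl, which muscle also expresses, was at 15.1, 12.1 and 19.4 CPM and 318, 313 and 161 CPM (4.06, SE 0.41, adjusted p = 7.6e-08), while Adipoq and Plin1 stayed at or under 1.26 CPM. Of these 3 rises, 1 was called without replicate 1 of MyoD alone and in the fits of only the groups compared. These rates are of the genes tested and do not describe the whole lists. The part of these cell types in the results above was not tested.

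Some neural and epithelial markers were higher with F/R/C, most at low levels. Of 20 neuronal genes, 9 were tested, 5 rose and 1 fell, and 13 were under 1 CPM with F/R/C. The rate of calls was 66.7% of those tested, against 24.0% of all genes. With MyoD alone, 17 of the 20 were under 1 CPM. Genes this low can pass the count filter through groups where they are higher, so this rate does not describe the whole list. The summed level of the neuronal list was 70.4 to 134 CPM with MyoD alone and 57.8 to 117 CPM with F/R/C, overlapping. The count of rises was 2 with only the groups compared and the block, and 3 with DESeq2. Lhx3, a LIM-homeobox factor of motor neurons and pituitary, had no reads with MyoD alone and 22, 7.03 and 1.44 CPM with F/R/C. It was at least 71.7-fold higher (adjusted p = 3.4e-05), with replicate 1 far above replicate 3, and DESeq2 did not call it. Stmn2 fell from 77.1, 41.8 and 92.2 CPM to 16.3, 22 and 20.5 CPM (-1.73). Foxd3, the neural crest factor, was at 0, 0 and 0.0484 CPM and 3.40, 8.82 and 15.5 CPM, a ratio of 635 (interval 114 to 25116), while the other 7 genes of the Schwann cell and neural crest list were not called or not tested. Of 11 epithelial genes, 5 were tested and 4 rose, of which 2 were called without replicate 1 of MyoD alone or without F/R/C replicate 3. The rate of calls was 80% of those tested. With MyoD alone, 9 of the 11 were under 1 CPM, so the limit given for the neuronal list holds here too. Krt8 was at 0.0437, 0 and 0.0484 CPM with MyoD alone and 7.41, 2.75 and 1.41 CPM with F/R/C, a ratio of 111 (interval 30.4 to 923), and Cdh1 rose by 3.11. Epcam, Krt5 and Krt14 were not tested because their levels were too low.

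Further genes were among the 12 with the largest changes in each direction. The hypoxia-inducible factor gene Hif3a had no reads with MyoD alone and 2.58, 7.29 and 16.7 CPM with F/R/C, at least 62.7-fold higher, and its F/R/C libraries differed widely. P2rx1, an ATP-gated ion channel, was at 0.0437, 0.148 and 0.145 CPM and 18, 31.7 and 67.4 CPM, a ratio of 382 (interval 185 to 952). Lyve1, a hyaluronan receptor known from lymphatic vessels, was at 0.218, 0.148 and 0.0484 CPM and 31.4, 27.2 and 35.7 CPM (7.73, SE 0.40, adjusted p = 1e-11). These 3 were at or near 0 in all libraries of MyoD alone. The carbonic anhydrase gene Car2 rose by 7.13 and the orphan receptor gene Gpr50 by 7.39. The ratio of F/R/C to MyoD alone was 300.3 for the channel gene Pkd2l1 (interval 102 to 1459) and 431 for Tmem178 (interval 76.9 to 17043).

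On the lower side, the matrix protein gene Cilp was at 67.3, 40.6 and 54.4 CPM with MyoD alone and 0.329, 1.48 and 2.81 CPM with F/R/C (-5.27, SE 0.54, adjusted p = 9.2e-08). Tfpi2, a protease inhibitor, was at 12.6, 11.6 and 42.6 CPM and 0.275, 0.262 and 0.190 CPM (-6.36, SE 0.78, adjusted p = 9.1e-07). Both were nearly absent from the F/R/C libraries. The receptor phosphatase gene Ptprb fell by 5.44, Serpinb2, an inhibitor of plasminogen activators, by 5.47, and Pbp2 by 5.75. Aldh3b3 (-7.36) and its relative Aldh3b2 (-5.38) both fell, as did Ctla2a (-5.57) and Csprs (-5.43). Lce1h was lower, with a ratio of MyoD alone to F/R/C of 187 (interval 51.4 to 1551). Reads of the last 5 genes were divided among like transcripts, and their split is uncertain.

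Most day 8 calls were shared with day 10. Each day has its own libraries of both arms. Of the 2080 genes higher on day 8, 505 (24.3%) were also called higher on day 2, 1065 (51.2%) on day 4, 1470 (70.7%) on day 6 and 1693 (81.4%) on day 10. These are 57.8%, 63.7%, 73.8% and 76.5% of the genes called higher on those days. Of the 1920 lower genes, 493 (25.7%), 975 (50.8%), 1188 (61.9%) and 1715 (89.3%) were also lower, or 55.2%, 64.8%, 75.9% and 70.0% of the lower calls of days 2, 4, 6 and 10. Of all genes tested, 5.24%, 10.0%, 11.9% and 13.3% were called higher on those days and 5.35%, 9.02%, 9.38% and 14.7% lower. On all 4 other days 351 of the higher and 388 of the lower genes were called in the same direction. On no other day were 83 of the higher and 73 of the lower genes called. Calls in the opposite direction numbered at most 20 of the higher and at most 12 of the lower genes on any day.

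Tests of the difference between days gave few calls. For day 8 minus day 6, edgeR's quasi-likelihood test called 1 gene (0.00599%), against 1765 at an unadjusted p under 0.05, and DESeq2 called 77. The gene called by edgeR was Phactr2, an actin- and phosphatase-binding protein gene, at 23.6, 21.5 and 16.8 CPM with MyoD alone and 55.2, 51.8 and 68.5 CPM with F/R/C on day 8 (1.51, SE 0.15, adjusted p = 8.7e-08). Its F/R/C effect was larger on day 8 than on day 6 by 1.27 (edgeR adjusted p = 0.0365). For day 10 minus day 8, edgeR's quasi-likelihood test called 0 genes, with 802 at an unadjusted p under 0.05, and DESeq2 also called 0, with 870. Both comparisons use the day 8 libraries. The median standard error was 0.33 in each, against 0.24 for the day 8 effect itself. With this lower precision, few calls do not show that the effects were equal between days. The levels of other genes across days are given as descriptions.

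Pax7 was not called on day 2 and was called higher with F/R/C on each later day. With F/R/C its level was 0 ± 0, 0.520 ± 0.539, 4.44 ± 4.05, 30.0 ± 1.25 and 64.5 ± 17 CPM on days 2, 4, 6, 8 and 10 (mean ± SD, n = 3), and it never exceeded a mean of 0.0879 CPM with MyoD alone. Among the days on which it was detected, its day 8 libraries had the smallest spread relative to the mean. Msc had a like course, with F/R/C means of 5.58 ± 4.07 (day 6), 21.9 ± 11.7 (day 8) and 42.6 ± 21.3 CPM (day 10). Mstn was high from the start, with F/R/C means of 240.1 ± 59.1 (day 2), 682 ± 178 (day 4) and 415 ± 49 CPM (day 8), against at most 3.51 CPM on average with MyoD alone.

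For the Notch genes Dll1 and Heyl, both arms started high on day 2, and the means with MyoD alone were lower on each later day. Dll1 with MyoD alone averaged 72.4 ± 10.1 (day 2), 18.9 ± 2.02 (day 4) and 5.91 ± 3.19 CPM (day 8), and with F/R/C 41 ± 1.96, 23.3 ± 1.12 and 37.9 ± 7.37 CPM (mean ± SD, n = 3). Its log2 fold change was -0.84 on day 2, not called, and 2.71 on day 8. Heyl with MyoD alone was at 80.1 ± 25.7 (day 2) and 6.06 ± 1.37 CPM (day 8), and with F/R/C at 53.6 ± 17.7 and 114 ± 24.4 CPM. Casq1 with F/R/C had its highest mean on day 4, at 632 ± 151 CPM, and stood at 318 ± 72.4 (day 8) and 228 ± 139 CPM (day 10). Fn1 and Fbln2 were called lower with F/R/C on every day, with log2 fold changes from -2.15 on day 2 to -4.54 on day 10 for Fn1 and from -2.59 to -6.98 for Fbln2. In untreated MEFs Fn1 stood at 9733 ± 4251 CPM and Fbln2 at 2002 ± 786 CPM.

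**Figure D4:**
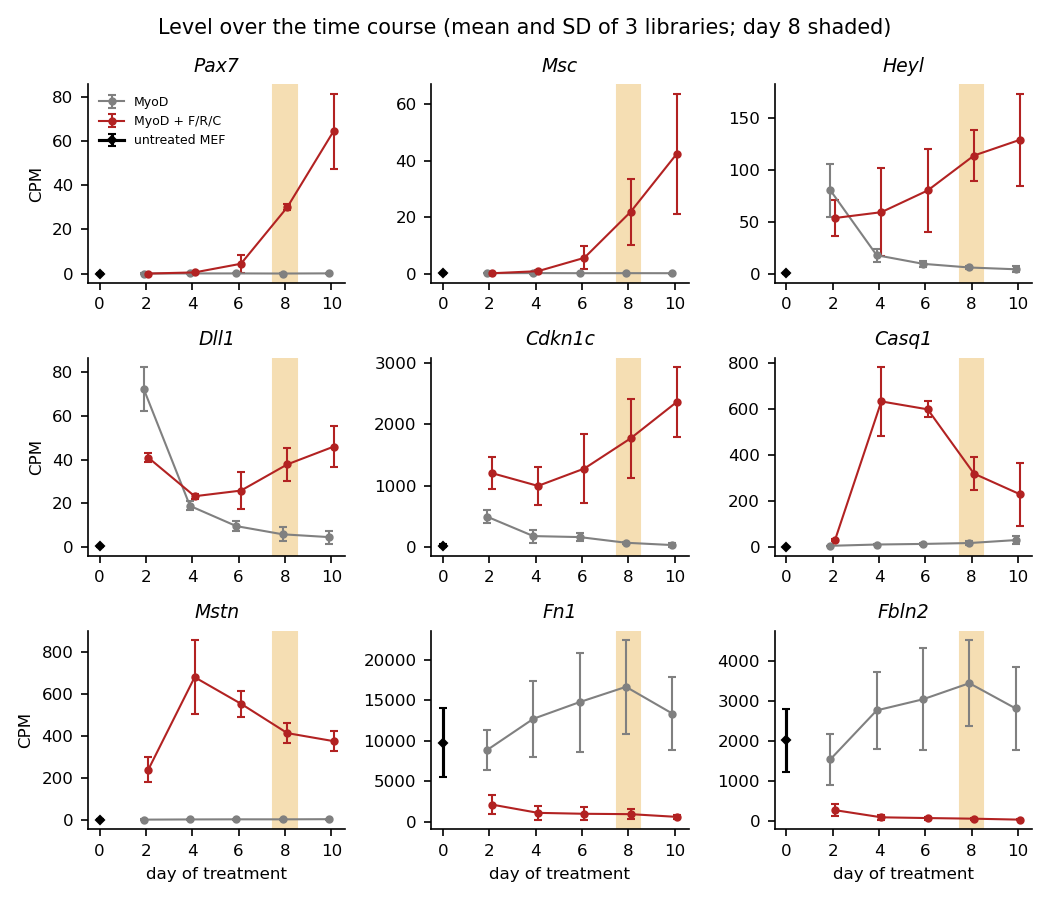
Mean CPM and SD of 3 libraries (linear axes that differ between panels) against day of treatment for 9 genes, with MyoD alone in grey, MyoD with F/R/C in red and untreated MEFs as a black diamond at day 0. Day 8 is shaded. Pax7, Msc and Cdkn1c have their highest F/R/C mean on day 10, Casq1 and Mstn on day 4, and Dll1 and Heyl with MyoD alone have their highest mean on day 2.

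Levels in some reference cultures of the series are given beside those of day 8, in the authors' transcripts per 1000000 (TPM) summed per gene. The cultures given differ from gene to gene. Pax7 was at 10.7 ± 0.733 TPM in day 8 F/R/C cultures, 17.9 ± 6.19 TPM in bulk iMPCs, 73.8 ± 11.5 TPM in Pax7-positive iMPCs and 173 ± 56.1 TPM in bulk myoblasts (mean ± SD, n = 3). Msc was at 27.9 ± 14.6 TPM on day 8 with F/R/C, 16.7 ± 18.1 TPM in bulk iMPCs and 0.115 ± 0.132 TPM in bulk myoblasts. Myf6 was at 58.8 ± 16.6 TPM on day 8 with F/R/C, 108 ± 5.70 TPM in bulk iMPCs and 4.90 ± 3.66 TPM in Pax7-positive iMPCs. These cultures differ in duration and sorting as well as in treatment. The deposited effective lengths, which scale TPM, correspond to a fragment length (transcript length minus effective length plus 1, median) of 153 bases in the day 8 and bulk cultures and 180.03 bases in the Pax7-positive ones, so TPM was not computed alike in both. No difference among them was tested here.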

How the data were processed

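Total RNA of whole cultures was made into poly-A, stranded libraries and sequenced as single-end reads, per the labels' protocols. The submitters' processing notes name bcl2fastq 2.19, Trimmomatic 0.36, kallisto 0.44, edgeR 3.28 and the build GRCm38.p6. The transcript release is not given in the sources used here. The deposited tables give kallisto's estimated counts and TPM per transcript, as the authors made them.

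Estimated counts were summed per gene with GENCODE M21, which held 121104 of 121843 transcripts, and rounded to whole numbers. kallisto divides reads among like transcripts, so 23201 of 35675 genes had whole counts (within 0.05) in every library. Genes with low counts were removed with filterByExpr, and 16688 remained. edgeR 4.0.16 (R 4.3.3) was fitted to the 33 time-course libraries, with TMM scaling, a term per group and the replicate number as a block, which leaves 20 residual degrees of freedom. Day comparisons are contrasts of that fit, and the contrasts for days 2, 4, 6 and 10 were added after seeing the data.

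Same-numbered day 8 libraries deviated together with r = 0.352, 0.288 and 0.032 for replicates 1, 2 and 3 (across genes, which are not independent). Replicate 3 of both arms expressed Y-linked genes (154 and 141 CPM), and replicates 1 and 2 of both arms had under 1 CPM. Xist was the reverse, at 329 and 366 CPM (MyoD alone) and 472 and 590 CPM (F/R/C) in replicates 1 and 2. In replicate 3 it was at 0 and 0.114 CPM. By these genes, the sex of the cells differed between replicate 3 and replicates 1 and 2. No 2 libraries agreed within sampling noise: chi-square per degree of freedom was at least 41.8.

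Members and the 29 lists (541 genes, 485 of them tested) were chosen with earlier results of these data known. Named are the 12 genes with the largest changes in each direction that were called, moved the same way in all pairs and had a mean of at least 5 CPM, up to 5 called genes per list and direction, up to 5 per day comparison, and genes of known role. Further list members are given by their log2 fold change. List counts cover all members, and 4 members are not reported here by name. Alternatives used no block, all 45 libraries, day 8 libraries only, DESeq2 1.42.0, other scaling, other filters and each library or replicate number left out. The fit was tested on simulated data. Promoters come from RefSeq (GRCm38.p6). Fold bounds against a group with no reads use 3 reads per library. Where the lower group had 1 to 3 reads in its highest library, the ratio of pooled counts per effective library size is given with an exact (Clopper-Pearson) 95% interval. Bounds and intervals cover counting error only. Python 3.11.15, pandas 2.3.3 and matplotlib 3.10.9 were used.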

Additional observations from a re-analysis of the deposited data

Results flagged for a closer look

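Phactr2, which encodes an actin- and phosphatase-binding protein, was the gene whose F/R/C effect was called different between days 6 and 8 by edgeR's quasi-likelihood test, while DESeq2 called 77 genes. The test of the difference itself gave 1.27 on the log2 scale (edgeR adjusted p = 0.0365). On day 8 it stood at 23.6, 21.5 and 16.8 CPM with MyoD alone and 55.2, 51.8 and 68.5 CPM with F/R/C, higher in 3 of 3 pairs. In most of the alternative analyses no gene was called in this comparison.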

How the results depend on the processing

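The day 8 count of 4000 stayed between 2770 and 4073 in the 17 alternatives that kept the 2-fold minimum, and was 8221 without it. It was 3592 without the replicate block, 2794 and 2770 with only the groups compared, with and without the block, and 3159 to 4043 when a library or a replicate number was left out. The replicate pairing was imposed by number: deviations of replicate 3 did not correlate between the arms (r = 0.032). Of 3379 alternative values of 189 named genes, 3061 kept their direction and side of the threshold, 308 lost the call, 6 gained it and 4 reversed. The reversals were all Myh3, at -0.04 with all 45 libraries and no block, -0.15 without replicate 3 of MyoD alone, -0.06 without F/R/C replicate 3 and -0.27 without replicate 3 in every group. Leaving out a library or number gave Myh3 values from -0.27 to 0.56. Of the named genes, 112 were the same under all their alternatives. Called genes that lost their call numbered 24 without the block, 43 with all 45 libraries and no block, 36 and 24 with only the groups compared, without and with the block, and 33 without replicate 2 in every group.

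For day 8 minus day 6, the count of 1 became 0 without the replicate block, with all 45 libraries, with only the groups compared and no block, with RLE factors and with no filter. It became 2 with only the groups compared and the block, 2 with no minimum fold, 5 with the stricter filter and 77 with DESeq2. Leaving out a library or number gave 0 to 18, the highest without day 6 F/R/C replicate 3 (18) and without day 8 F/R/C replicate 1 (8). For day 10 minus day 8, the count of 0 became 1 without day 10 F/R/C replicate 3 and was 0 otherwise. The causes were not tested.

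A floor of 3 reads per library (0.141 CPM with MyoD alone) sets the bounds for genes with no reads in a group, and 3 libraries per group limit what could be called. Of 49 list counts above 0, 28 moved by over 1.5 times in at least 1 alternative.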
